A study of Homo sapiens with 72 samples.

Results

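The 10 genes described here are regulators of the integrated stress response: ATF4, ATF3, DDIT3, TRIB3, CEBPB, PPP1R15A, SESN2, DDIT4, NUPR1 and GDF15. They were picked by symbol as a known pathway, with earlier results of these data known, from the 23170 genes counted, and all 10 were among the 14264 genes that passed the filter on low counts. The cells were wildtype normal human dermal fibroblasts, which are primary skin cells, grown in a 384-well plate and held for 24 hours with omaveloxolone or with its solvent DMSO. This synthetic triterpenoid releases the transcription factor NRF2 from its inhibitor KEAP1. On the plate, rows K and L held the treated wells, while columns 2 and 23 held DMSO, so that 4 DMSO wells shared the rows of the treated wells. They are called the same-row DMSO wells below. As the only reference they are 4 wells rather than 32, so fewer controls alone can end a call. The doses lay in order of plate column, from 10 µM in columns 3 and 13 to 0.0005 µM in columns 12 and 22. Effects of dose and of column order cannot be told apart. RNA was read by DRUG-seq, a pooled method that counts barcoded RNA from lysates of single wells. DMSO had 32 wells, and the 10 doses of omaveloxolone (0.0005, 0.002, 0.005, 0.014, 0.04, 0.12, 0.37, 1.11, 3.33 and 10 µM) had 4 each. The protocol in the labels names 16 DMSO wells on a plate, and it is not known how this fits the 32 wells used here. No group carried a genetic change, and no other agent is named in the labels. The titles in the labels call each well a biological replicate, but the labels do not say that wells are separate cultures. The p-values therefore measure the spread between wells, which may be technical.

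The integrated stress response starts when a kinase phosphorylates the translation factor eIF2 on its alpha subunit. Most protein synthesis then slows, while the mRNA of ATF4 is translated more efficiently. ATF4 is a transcription factor that switches on genes of amino acid supply and redox balance, and also ATF3, DDIT3 (which encodes CHOP) and TRIB3. PPP1R15A (GADD34) closes the loop by bringing a phosphatase to eIF2. Because ATF4 is controlled largely in translation, its mRNA level does not report its protein level.

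Depth changed with dose. DMSO wells held 4910842 to 8685535 counts, and the means up to 0.04 µM lay between 5571740 and 6857732. The 4 wells at 0.12 µM averaged 7758806 counts and those at 0.37 µM 9878163. The averages for 1.11, 3.33 and 10 µM were 1565630, 169669 and 30832 counts. Levels are given in CPM, counts relative to the scaled library total. Relative to the unscaled mean total, a single count was worth 0.150 CPM in DMSO, and 0.639, 5.89 and 32.4 CPM at these 3 doses. In the scaled levels given below, a single count of a member at 10 µM was 13.5 to 17.5 CPM. DMSO wells had 13086 to 14843 genes with a count, and those at 0.37 µM 13915 to 14388, against 10447 to 10984 at 1.11 µM. Mitochondrially encoded genes held 0.600% to 1.25% of counts in DMSO and 0.347% to 0.539% at 0.12 µM. Their share was 0.0317% to 0.0513% at 0.37 µM, and 0.0143% to 0.0265% at 1.11 µM. All 10 fibroblast markers were counted, and their summed level was 67614 to 81928 CPM in DMSO. It was 33772 to 37964 CPM at 0.37 µM, and at 1.11 µM the sum was 66935 to 79310 CPM. Of 4 immune markers CD3E was not among the counted genes. PTPRC and LYZ were at 0 at 1.11 µM, and the sum, which was mostly CD68, was 90.4 to 181.7 CPM in DMSO. At 0.37 µM it was 90.1 to 98.0 CPM, and the 1.11 µM wells had 205 to 408 CPM. In DMSO, 0.37 µM and 1.11 µM, in this order, the summed melanocyte markers were at most 3.02, 5.11 and 0 CPM. The endothelial markers were at most 5.36, 2.65 and 4.75 CPM, and the smooth muscle and pericyte markers at most 10.0, 5.08 and 29.8 CPM in the same groups. Of 4 keratinocyte markers only DSP was counted (at most 39.1, 25.7 and 11.8 CPM). The part of these shifts in the results below was not tested. In a lysate of a whole well, fewer cells and less RNA per cell cannot be told apart.

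No member was called at the 5 lowest doses, most rose at 0.37 µM, and they then parted. At 0.37 µM 8 of 10 were called higher, that is, with an adjusted p under 0.05 in edgeR's quasi-likelihood test of all genes. The exceptions were CEBPB and DDIT4. The comparisons with DMSO share its 32 wells. At 1.11 µM 7 of 10 were higher: ATF3, DDIT3, PPP1R15A, SESN2, DDIT4, TRIB3 and GDF15. ATF4 and NUPR1, higher at 0.37 µM, had fallen from that level. The background was 11.2% of all genes called higher at 0.37 µM and 9.76% at 1.11 µM. The median log2 change of the 10 members against DMSO was 1.88 at the lower of these doses and 2.73 at the higher. The median of all genes was -0.14 and -0.20. In 6 members all 4 wells at 0.37 µM lay above the highest DMSO well, as they did in 6.04% of all genes. At 1.11 µM this also held for 6 members, and for 2.26% of all genes.

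**Figure D1:**
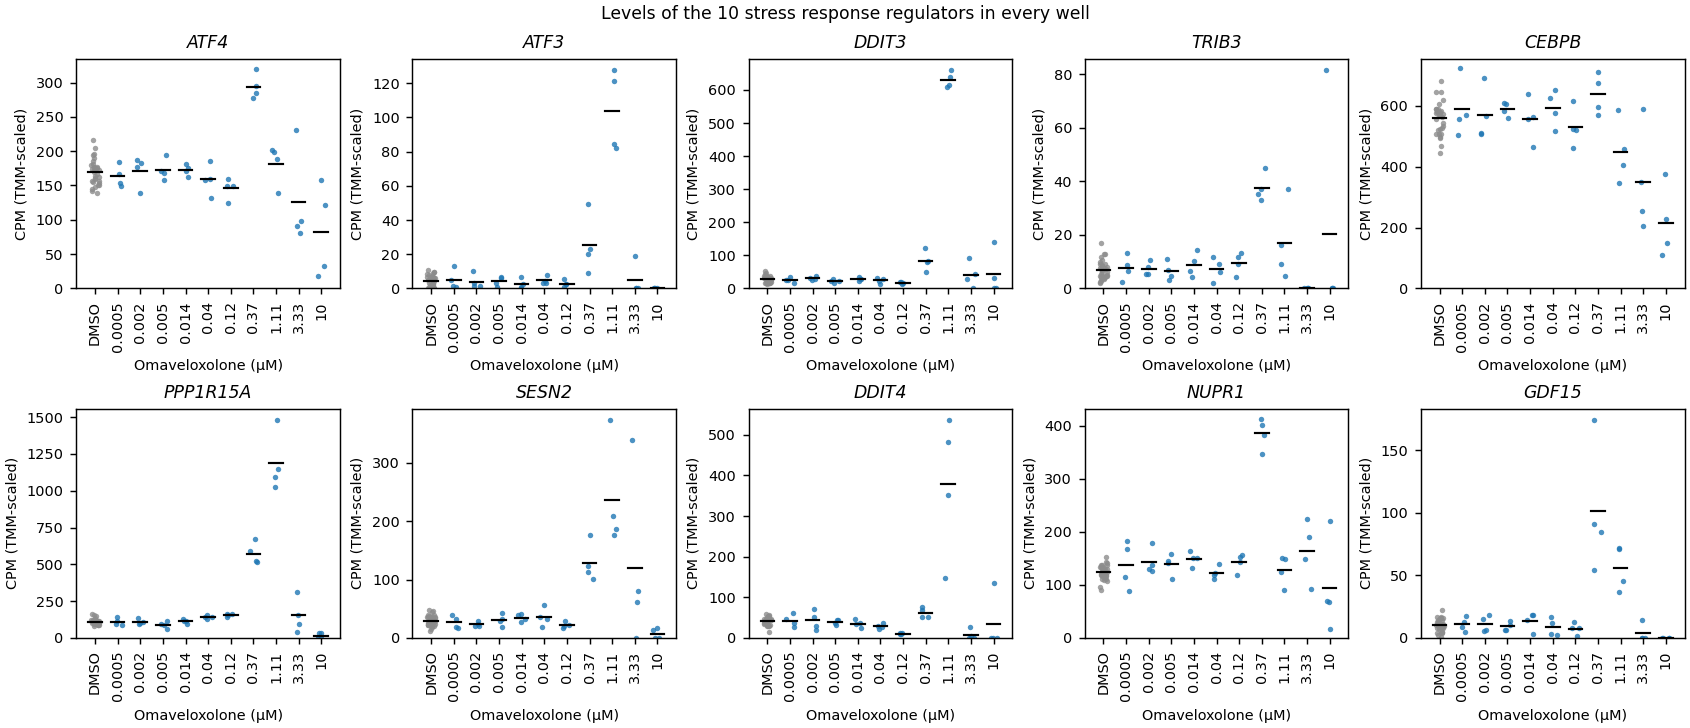
Level of each of the 10 genes (y axis, CPM after TMM scaling, linear from 0) in every well, by omaveloxolone dose (x axis, µM); grey points are 32 DMSO wells, blue points 4 wells a dose, and black bars group means. ATF4, NUPR1, TRIB3 and GDF15 have their highest mean at 0.37 µM, while ATF3, DDIT3, PPP1R15A, SESN2 and DDIT4 have it at 1.11 µM.

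No member was called at any of the 5 lowest doses. At 0.0005, 0.002, 0.005, 0.014 and 0.04 µM edgeR called 0 of 10 members in either direction. The background, in this order, was 0.00701%, 0.0561%, 0.0631%, 0.203% and 0.603% of all genes called higher. Of the 14264 genes 0, 0, 2, 2 and 27 were called lower. At shares this small, 0 of 10 does not set the members apart from other genes. The DESeq2 Wald test called 0 members higher at these doses. At an unadjusted p under 0.05, 1 member passed, PPP1R15A at 0.04 µM (p = 0.0448, edgeR; adjusted p = 0.622). Of the 200 single values of the 10 genes in these 20 wells, 11 lay above the highest DMSO well of their gene and 5 below the lowest. NUPR1, a small stress-induced chromatin protein, held 5 of the 11.

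**Figure D2:**
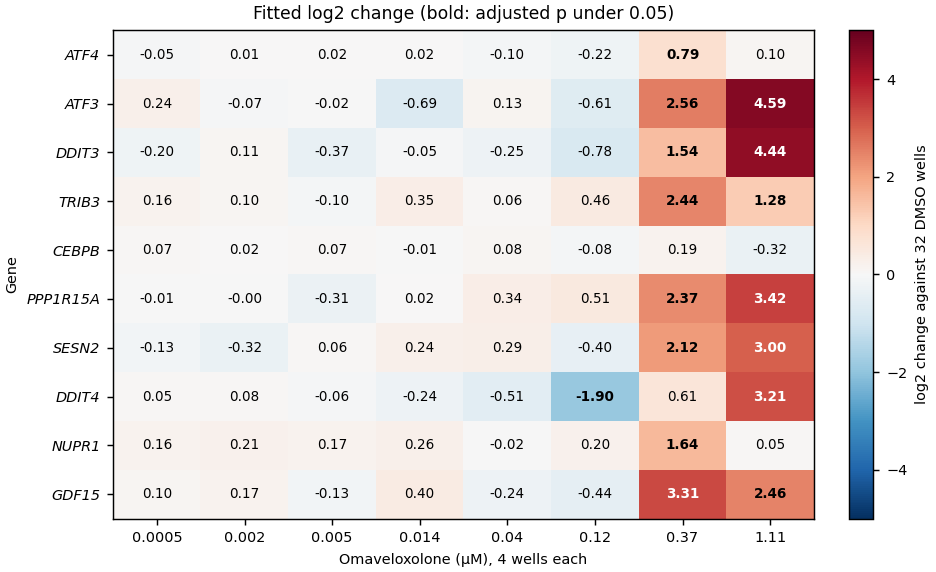
Fitted log2 change against 32 DMSO wells (colour and printed value) of the 10 genes (rows) at the 8 doses up to 1.11 µM (columns, 4 wells each); bold values have an edgeR adjusted p under 0.05. The only bold value below 0.37 µM is the fall of DDIT4 at 0.12 µM (-1.90).

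ATF4 (ENSG00000128272; GRCh38 chromosome 22, 39519695 to 39522685, plus strand) is the central transcription factor of the response. Its level in DMSO was 139 to 216 CPM with a median of 171, and the 4 wells at 0.12 µM held 125, 149, 159 and 149 CPM. At 0.37 µM the wells held 319, 285, 295 and 277 CPM, all above every DMSO well. The rise was 1.73-fold (log2 change 0.79 ± 0.13 SE, edgeR adjusted p = 1.19e-06). At 1.11 µM the wells held 199, 201, 188 and 139 CPM, back inside the DMSO range apart from the last, which lay just below it. The log2 change there was 0.10 ± 0.14 (adjusted p = 0.640). From 0.37 to 1.11 µM ATF4 fell by 0.69 on the log2 scale (SE 0.19, adjusted p = 0.00396). Rows of 2 ATF4 pseudogenes, ATF4P3 and ATF4P4, held 26 and 11 counts over all wells.

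ATF3 (ENSG00000162772; chromosome 1, 212565334 to 212620777, plus strand), a stress-induced repressor of the same family, was low in DMSO, at 0 to 10.9 CPM with a median of 3.70. The wells at 0.37 µM held 20.4, 49.5, 8.87 and 23.0 CPM, so 1 of 4 overlapped the DMSO wells. The rise was 5.91-fold (log2 change 2.56 ± 0.54, edgeR adjusted p = 0.000124), and with the same-row DMSO wells as the only reference the adjusted p was 0.05003. At 1.11 µM the wells held 82.0, 122, 128 and 84.3 CPM, 24.1-fold the DMSO level (log2 change 4.59 ± 0.50, adjusted p = 1.01e-11). All 4 were far above every DMSO well. The step from 0.37 to 1.11 µM did not pass (log2 change 2.03 ± 0.91, adjusted p = 0.0925).

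DDIT3 (ENSG00000175197; chromosome 12, 57516588 to 57521737, minus strand) encodes CHOP, a transcription factor known for its role in cell death after long stress. DMSO wells held 13.9 to 51.6 CPM with a median of 28.8, and the wells at 0.12 µM 13.4, 17.1, 18.6 and 18.4 CPM. The latter sat at the low end of the DMSO range, 1 of them below it (log2 change -0.78 ± 0.30, edgeR adjusted p = 0.214), a fall that the DESeq2 Wald test called (adjusted p = 0.0261). At 0.37 µM they held 50.7, 122, 83.9 and 81.1 CPM, a rise of 2.91-fold (log2 change 1.54 ± 0.24, adjusted p = 2.73e-07). At 1.11 µM they held 660, 639, 616 and 609 CPM, a narrow band 21.8-fold above DMSO (log2 change 4.44 ± 0.20, adjusted p = 2.65e-31). The step from 0.37 to 1.11 µM was 2.90 ± 0.39 on the log2 scale (adjusted p = 7.97e-09).

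The 3′ end of DDIT3 overlaps that of MARS1, the methionyl-tRNA synthetase gene on the other strand (57475445 to 57517569). Use of strand in the counting is not given in the sources used here, so reads in the overlap could have gone to either gene. MARS1 stood at 37.8 ± 10.3 CPM in DMSO (SD, n = 32), 122 ± 13.6 CPM at 0.37 µM (n = 4; log2 change 1.69 ± 0.21, edgeR adjusted p = 2.52e-10) and 25.9 ± 12.2 CPM at 1.11 µM (log2 change -0.54 ± 0.27, adjusted p = 0.141). It thus rose with DDIT3 at 0.37 µM but was not called at 1.11 µM, where DDIT3 was highest.

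TRIB3 (ENSG00000101255; chromosome 20, 362835 to 397559, plus strand), a pseudokinase that restrains ATF4 and AKT, was at 2.10 to 16.8 CPM in DMSO with a median of 6.42. At 0.37 µM the wells held 37.3, 45.1, 32.9 and 35.3 CPM, each above every DMSO well. The rise was 5.43-fold (log2 change 2.44 ± 0.37, edgeR adjusted p = 1.87e-07). At 1.11 µM the wells were spread, at 37.1, 4.48, 9.24 and 16.3 CPM from 48, 6, 11 and 24 counts, and 3 of them lay in the DMSO range. The call there (log2 change 1.28 ± 0.43, adjusted p = 0.0233) rested on single wells. Without replicate 1 the log2 change was 0.54 (adjusted p = 0.475), without replicate 4 it was 1.28 (adjusted p = 0.0543), and against the same-row DMSO wells alone 1.18 (adjusted p = 0.324).

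CEBPB (ENSG00000172216; chromosome 20, 50190734 to 50192689, plus strand), a transcription factor that pairs with ATF4 and CHOP, had the smallest log2 change of the 10 genes at 0.37 µM. DMSO wells held 446 to 682 CPM with a median of 571. The wells at 0.37 µM held 571, 712, 675 and 596 CPM and those at 1.11 µM 588, 405, 348 and 457 CPM. Neither dose was called (log2 change 0.19 ± 0.13, edgeR adjusted p = 0.293, and -0.32 ± 0.13, adjusted p = 0.0729). The DESeq2 Wald test called both, as higher (adjusted p = 1.49e-05) and as lower (0.0351). The step between these doses passed as a fall of 0.51 on the log2 scale (SE 0.17, adjusted p = 0.0219), but not without replicate 2 or 3 of either dose (adjusted p = 0.0509 to 0.0989).

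PPP1R15A (ENSG00000087074; chromosome 19, 48872392 to 48876057, plus strand) encodes the inducible subunit that directs protein phosphatase 1 to eIF2. Its DMSO wells held 83.1 to 164 CPM with a median of 106. The wells at 0.12 µM held 166, 166, 142 and 158 CPM, all above the DMSO median and 2 of 4 above every DMSO well (log2 change 0.51 ± 0.16, edgeR adjusted p = 0.0972). That change passed by the DESeq2 Wald test (adjusted p = 0.0270) and in the fit without the 3.33 and 10 µM wells (edgeR adjusted p = 0.00323). At 0.37 µM the wells held 514, 670, 520 and 588 CPM, 5.15-fold DMSO (log2 change 2.37 ± 0.14, adjusted p = 1.99e-24). At 1.11 µM they held 1483, 1025, 1091 and 1149 CPM, 10.7-fold DMSO (log2 change 3.42 ± 0.13, adjusted p = 6.36e-36). The further step of 1.05 ± 0.23 on the log2 scale also passed (adjusted p = 0.000271).

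SESN2 (ENSG00000130766; chromosome 1, 28259527 to 28282491, plus strand) encodes sestrin 2, a leucine sensor that inhibits the growth kinase mTORC1. DMSO wells held 11.9 to 47.1 CPM with a median of 28.1. At 0.37 µM the wells held 113, 176, 123 and 100.4 CPM, each above every DMSO well (4.35-fold, log2 change 2.12 ± 0.25, edgeR adjusted p = 1.02e-10). At 1.11 µM they held 374, 208, 176 and 187 CPM, with replicate 1 well above the other 3 (8.02-fold, log2 change 3.00 ± 0.24, adjusted p = 2.02e-17). The step between them did not pass (log2 change 0.88 ± 0.40, adjusted p = 0.0989).

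DDIT4 (ENSG00000168209; chromosome 10, 72273920 to 72276036, plus strand) encodes REDD1, another inhibitor of mTORC1, and was the one member that edgeR called lower at 0.12 µM. DMSO wells held 15.7 to 58.5 CPM with a median of 42.4. The wells at 0.12 µM held 11.3, 9.92, 12.5 and 10.1 CPM, from 85, 66, 103 and 60 counts, and lay below every DMSO well, as in 0.631% of all genes. The level was 3.74-fold lower (log2 change -1.90 ± 0.32, edgeR adjusted p = 1.70e-05), and 1.02% of all genes were called lower at this dose, while 1.31% were called higher. Against the same-row DMSO wells alone the log2 change was -1.50 and did not pass (adjusted p = 0.255). At 0.37 µM the wells held 52.4, 75.1, 69.8 and 52.7 CPM, above the DMSO median and partly within the DMSO range (log2 change 0.61 ± 0.25, adjusted p = 0.0708). At 1.11 µM they held 482, 148, 352 and 538 CPM, 9.25-fold DMSO (log2 change 3.21 ± 0.21, adjusted p = 4.70e-22), all above every DMSO well but spread by replicate 2.

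NUPR1 (ENSG00000176046; chromosome 16, 28532708 to 28539174, minus strand) followed ATF4. DMSO wells held 90.6 to 153 CPM with a median of 123. At 0.37 µM the wells held 347, 412, 401 and 383 CPM, all above every DMSO well (3.11-fold, log2 change 1.64 ± 0.13, edgeR adjusted p = 2.36e-17). At 1.11 µM they held 151, 89.5, 124 and 148 CPM, at the DMSO level (log2 change 0.05 ± 0.16, adjusted p = 0.848). The fall between these doses was 1.59 on the log2 scale (SE 0.21, adjusted p = 8.78e-09).

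GDF15 (ENSG00000130513; chromosome 19, 18374731 to 18389176, plus strand), a secreted stress hormone of the TGF-beta family, had the largest rise of the 10 genes at 0.37 µM. DMSO wells held 0.570 to 22.3 CPM with a median of 10.2. The wells at 0.37 µM held 54.1, 175, 91.4 and 84.9 CPM (9.90-fold, log2 change 3.31 ± 0.34, edgeR adjusted p = 9.11e-13). At 1.11 µM they held 71.2, 36.5, 45.4 and 72.04 CPM (5.51-fold, log2 change 2.46 ± 0.37, adjusted p = 3.65e-07). At both doses every well lay above every DMSO well, and the fall between them did not pass (log2 change -0.85 ± 0.59, adjusted p = 0.305). GDF15 was also the member that differed most between the 16 DMSO wells of plate column 2 (7.45 ± 3.69 CPM) and the 16 of column 23 (12.9 ± 4.28 CPM; log2 change of column 23 over column 2 0.78 ± 0.27, p = 0.00575, adjusted p = 0.0765, edgeR). No member was called between these columns, and 1 had an unadjusted p under 0.05, while 6.14% of 11259 genes were called. Set against the DMSO wells of its own plate side, GDF15 at 0.37 µM was 17.4-fold higher on the left and 5.63-fold higher on the right, with 2 treated and 16 DMSO wells a side.

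The rise between 0.12 and 0.37 µM was shared by 9 of the 10 genes, all but CEBPB, where 2.52% of all genes were called higher. The values ran from a log2 change of 1.01 ± 0.19 for ATF4 to 3.75 ± 0.66 for GDF15 (edgeR adjusted p = 6.80e-05 and 1.87e-05). Those of ATF3 (3.18 ± 0.97, adjusted p = 0.0260) and TRIB3 (1.98 ± 0.63, adjusted p = 0.0350) were the least certain. For ATF3 leaving out replicate 1, 2 or 4 at 0.12 µM or replicate 2 at 0.37 µM ended the call (adjusted p = 0.0725 to 0.116). For TRIB3 so did leaving out replicate 2, 3 or 4 at 0.12 µM or any well at 0.37 µM (0.0515 to 0.133), or using no filter on low counts (0.0588).

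The next step split the set. From 0.37 to 1.11 µM DDIT3, DDIT4 and PPP1R15A rose again, and ATF4, CEBPB and NUPR1 fell. All genes together had 12.1% called higher and 13.4% called lower. TRIB3 (log2 change -1.16 ± 0.63, adjusted p = 0.168), ATF3, SESN2 and GDF15 did not pass. Below these doses, from 0.04 to 0.12 µM, edgeR called 0 members and 0.0140% of all genes. The member with an unadjusted p under 0.05 was DDIT4 (log2 change -1.40 ± 0.37, p = 0.000363, adjusted p = 0.532), which the DESeq2 Wald test called (adjusted p = 0.0195).

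**Figure D3:**
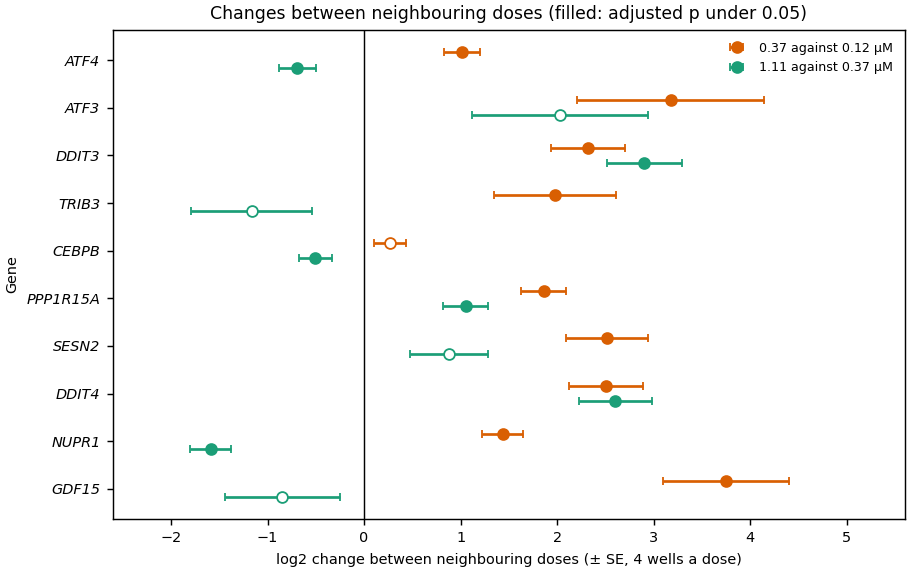
Log2 change ± SE (x axis) of each gene (y axis) from 0.12 to 0.37 µM (orange) and from 0.37 to 1.11 µM (green), 4 wells a dose; filled points have an edgeR adjusted p under 0.05. All orange points lie above 0, while the green points of ATF4, TRIB3, CEBPB, NUPR1 and GDF15 lie below 0 and those of the other genes above.

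TMM scaling assumes that most genes keep their share, so the unscaled counts were read as well. At 1.11 µM the wells held 4.25-fold fewer counts than DMSO wells on average. DDIT3 still had 733 to 896 counts a well, against 78 to 324 in DMSO. ATF3 had 106 to 163 counts against 0 to 84, and PPP1R15A 1298 to 1918 against 418 to 1292. For these 3 genes even the unscaled counts of the 1.11 µM wells lay above every DMSO well. SESN2 (209 to 483 against 83 to 319) and DDIT4 (198 to 791 against 121 to 423) overlapped DMSO, as did GDF15 (49 to 106 against 3 to 155) and TRIB3 (6 to 48 against 11 to 105). ATF4 (204 to 270 against 662 to 1527), NUPR1 (120 to 218 against 606 to 1039) and CEBPB (414 to 760 against 2717 to 5060) were below every DMSO well in unscaled counts. When DESeq2 size factors replaced TMM, the middle log2 change over all genes shifted up by 0.25 at 0.37 µM, and 63.4% rather than 45.1% of the called genes were higher. CEBPB (log2 change 0.45, edgeR adjusted p = 0.00253) and DDIT4 (0.87, adjusted p = 0.00508) were then called higher at 0.37 µM, so that all 10 members were. CEBPB also passed the step from 0.12 to 0.37 µM (0.57, adjusted p = 0.0174). Size factors moved the median by 0.28 for the step from 0.12 to 0.37 µM, with 31.1% and 62.2% of called genes higher, and by -0.19 for the step to 1.11 µM, with 47.4% and 37.0% higher.

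**Figure D4:**
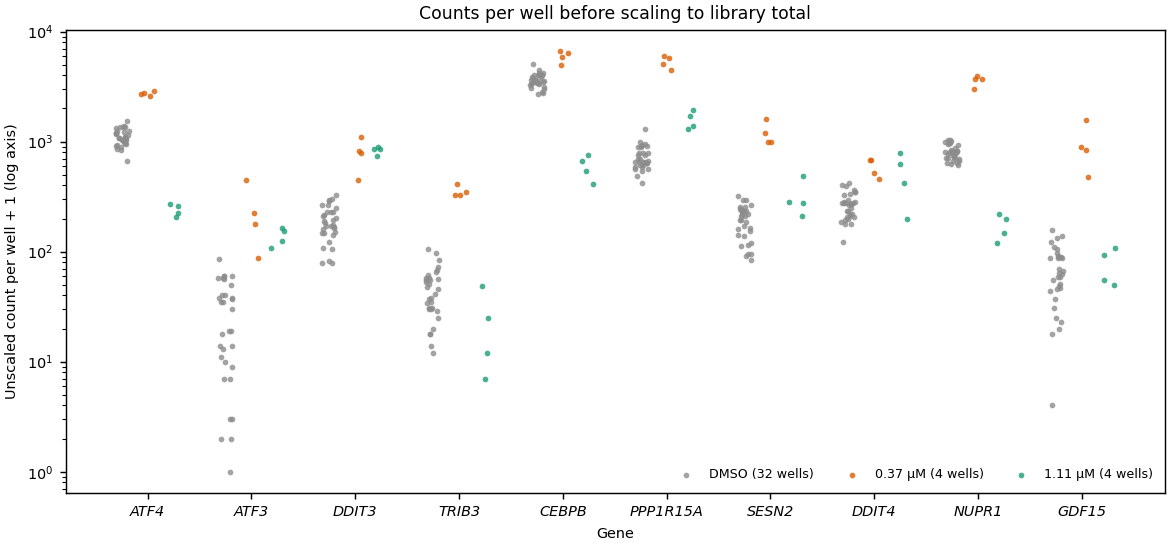
Unscaled count per well plus 1 (y axis, log scale) of the 10 genes (x axis) in 32 DMSO wells (grey), 4 wells at 0.37 µM (orange) and 4 wells at 1.11 µM (green). The green points of ATF3, DDIT3 and PPP1R15A lie above all grey points although the 1.11 µM wells held 4.25-fold fewer counts in all.

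At 3.33 and 10 µM the members were read from few counts. The 4 wells at 3.33 µM together held 89 counts of ATF4, 247 of CEBPB, 118 of NUPR1, 111 of PPP1R15A, 77 of SESN2, 28 of DDIT3, 6 of DDIT4, 4 of ATF3, 3 of GDF15 and 0 of TRIB3. SESN2 was called higher (7.35% of all genes were) and ATF4, CEBPB, DDIT4 and TRIB3 lower (32.9% were). The median log2 change against DMSO was -0.06 for the members and -2.32 for all genes. SESN2 held 80.3, 339, 61.8 and 0 CPM, and its call (log2 change 1.99 ± 0.34, edgeR adjusted p = 1.84e-06) rested on replicate 2. Without it the log2 change was 0.64 (adjusted p = 0.245). TRIB3 had 0 counts in all 4 wells, and a floor of 3 counts over the group was 1.65-fold lower than the DMSO mean of 6.91 CPM. The exact 95% Poisson interval of TRIB3 reached 5.16 CPM. The pooled level of GDF15, from 3 counts, was 4.196 CPM with an exact 95% Poisson interval of 0.865 to 12.3 CPM, which covers counting error only, and the pooled DMSO level was 10.5 CPM.

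The fall of CEBPB was the firmest of those at 3.33 µM. It was smaller than the median change of all genes (-2.32 on the log2 scale), as was that of ATF4. Its wells held 591, 255, 348 and 206 CPM, and 3 of 4 lay below every DMSO well (log2 change -0.68 ± 0.15, edgeR adjusted p = 0.000168). DDIT4 held 5.74, 0, 28.1 and 0 CPM (log2 change -2.28 ± 0.58, adjusted p = 0.000982, and 0.0511 against the same-row DMSO wells alone). ATF4 held 97.5, 91.4, 230 and 81.4 CPM, 3 wells below the DMSO range and 1 above it. Its call (log2 change -0.44 ± 0.18, adjusted p = 0.0452) was lost without replicate 1, 2 or 4 (0.186 to 0.299), with no filter on low counts (0.0741), when only the 3.33 µM and DMSO wells were fitted (0.0533) and against the same-row DMSO wells (0.242).

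Against 1.11 µM, 7 members were lower at 3.33 µM, all but CEBPB, SESN2 and NUPR1, and 27.6% of all genes were. The median log2 change of this step was -3.36 for the members and -1.27 for all genes. DDIT3 fell from 609 to 660 CPM to wells of 0, 91.4, 28.1 and 43.1 CPM (log2 change -3.99 ± 0.47, edgeR adjusted p = 1.42e-10). PPP1R15A fell from 1025 to 1483 CPM to 40.2, 97.9, 315 and 158 CPM (log2 change -2.95 ± 0.27, adjusted p = 8.78e-15). Of these PPP1R15A wells 1 was still above the DMSO range. ATF4 was the least certain of the 7 (log2 change -0.54 ± 0.22, adjusted p = 0.0486), a call lost with no filter on low counts (0.0958) and without replicate 1, 2 or 3 at 1.11 µM or replicate 1, 2 or 4 at 3.33 µM (0.0763 to 0.236).

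At 10 µM ATF4, CEBPB and PPP1R15A were called lower (31.8% of all genes were) and 0 members higher by edgeR (3.36% of all genes were). The unadjusted p was under 0.05 for those 3 alone. Each of these 3 falls was smaller than the median log2 change of all genes (-5.51), and the median of the members was -1.20. The DESeq2 Wald test called DDIT3 higher, and edgeR with size factors TRIB3. Size factors raised the share of higher genes among those called at this dose from 9.55% to 31.6%. CEBPB held 375, 148, 228 and 110 CPM from 23, 11, 13 and 7 counts (log2 change -1.40 ± 0.19, edgeR adjusted p = 1.48e-08). PPP1R15A held 0, 0, 35.1 and 31.5 CPM from 4 counts in all (log2 change -2.82 ± 0.51, adjusted p = 6.83e-06). The call of ATF4 (22 counts in all, log2 change -0.997 ± 0.25, adjusted p = 0.00209) was lost with size factors (log2 change -0.11, adjusted p = 0.820), with the DESeq2 Wald test (adjusted p = 0.782) and without replicate 1 (0.0519) or 3 (0.0610). ATF3 and GDF15 had 0 counts in all 4 wells, where a group total of 3 counts would be 11.7 CPM, above the DMSO mean of either gene. A difference was therefore not detectable at this depth.

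Among themselves the members fell into shapes that their group means describe. Over DMSO and the 8 doses up to 1.11 µM (9 group means of log2 CPM, which share the plate and the DMSO wells), Pearson's r was 0.96 for ATF3 with each of PPP1R15A, SESN2 and DDIT3, 0.94 for DDIT3 with DDIT4 and with SESN2, and 0.93 for ATF4 with NUPR1. TRIB3 stood closer to NUPR1 (0.90), ATF4 (0.89) and GDF15 (0.89) than to DDIT3 (0.53). CEBPB had a negative r with DDIT3 (-0.64) and DDIT4 (-0.53), and 0.50 with NUPR1. These values describe 9 points of which 2, the means at 0.37 and 1.11 µM, hold most of the spread.

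The search took in 8098 genes with a mean of at least 10 CPM over the same wells as r. Those with the pattern most like each member were found by the same measure. For ATF3 they were DNAJA4 (r = 0.99), HSPA1A (0.98) and CHORDC1 (0.98), for PPP1R15A HSPA8 (0.99), HSPA1A (0.99) and TMBIM1 (0.98), and for SESN2 NUP58 (0.99), HSPA1A (0.98) and AHSA1 (0.98). For DDIT3 they were UAP1 (0.99), ID1 (0.99) and MRPL18 (0.99), and for DDIT4 BTN3A2 (0.97), ARFGAP3 (0.96) and ATG16L1 (0.96). For ATF4 they were HMGA1 (0.98), PEG10 (0.98) and TRAF3 (0.97), for NUPR1 SERP1 (0.996), MAP1LC3B (0.99) and SNRPA1 (0.98), and for TRIB3 RAB7A (0.99), PLIN2 (0.99) and CDKN1A (0.99). For GDF15 they were PXDC1 (0.97), H2AZ1 (0.97) and HERPUD1 (0.97), and for CEBPB MTMR12 (0.97) and NAIF1 (0.96). DNAJA4 had 3.00 CPM in DMSO and 2.22 CPM at 0.12 µM, against 26.3 CPM at 0.37 µM and 444 CPM at 1.11 µM. It thus passed the limit of 10 CPM through the doses where it was high. Over all 10 doses (11 group means) r was lower for every gene named here, from 0.56 (SNRPA1 with NUPR1) to 0.95 (PXDC1 with GDF15). For DDIT3 it was 0.69 with UAP1 and ID1 and 0.73 with MRPL18.

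The sequences just before the start sites of 2 members are shown because they hold letters known as stress response motifs and because both genes rose at 0.37 and 1.11 µM. Windows of 250 bases before to 50 after each RefSeq start (GRCh38.p14) were searched on both strands. Of the 10 members, 9 had a window, and NUPR1 was the exception. In ATF3 the capitals mark TGATGNAA, the C/EBP-ATF response element bound by ATF4 and CHOP dimers, 191 bases before a start (chr1:212565196-212565243, plus strand). In PPP1R15A the capitals mark TGACNNNGC, the core of the antioxidant response element bound by NRF2, on the minus and then on the plus strand, and then TGACGTCA, the cyclic AMP response element bound by ATF and CREB factors (chr19:48872222-48872390, plus strand).
ATF3: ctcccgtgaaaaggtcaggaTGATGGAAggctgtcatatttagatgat
PPP1R15A: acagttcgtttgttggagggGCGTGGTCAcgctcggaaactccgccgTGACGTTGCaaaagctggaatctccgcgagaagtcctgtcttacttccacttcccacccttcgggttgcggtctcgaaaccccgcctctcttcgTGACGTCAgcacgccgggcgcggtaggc
The first motif was in 1 of the 9 members, ATF3, and in 4.46% of 27305 genes with a window (3.62% of 35116 windows, of which the members had 15). TGACGTCA was in PPP1R15A alone among them and in 2.25% of genes (1.85% of windows). TGACNNNGC was in PPP1R15A, TRIB3 and CEBPB and in 16.1% of genes (13.3% of windows). No 2 of these matches in PPP1R15A overlapped. The matches are letters only, and they do not show that a factor binds there.

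Genes of 8 related lists were read in the same fits. Of the 4 kinases of eIF2, 0 were called at 0.37 µM by edgeR or by the DESeq2 Wald test, where the largest log2 change was that of EIF2AK2 (-0.37 ± 0.21, edgeR adjusted p = 0.195). At 1.11 µM 2 were lower (13.6% and 13.2% of all genes were lower at these doses). EIF2AK1, the heme-regulated kinase that also relays mitochondrial stress, went from 95.6 ± 15.2 CPM (SD, n = 32) to 55.4 ± 21.6 CPM (n = 4; log2 change -0.79 ± 0.19, edgeR adjusted p = 0.00141). EIF2AK2, the kinase activated by double-stranded RNA, went from 83.3 ± 18.0 to 44.6 ± 22.1 CPM (log2 change -0.90 ± 0.23), which passed with all wells (adjusted p = 0.00218) but not without replicate 1 (0.0550). EIF2AK4, the sensor of amino acid shortage, had 137 ± 24.1 CPM in DMSO, and the 1.11 µM wells had 123 ± 36.3 CPM. EIF2AK3, the kinase of the endoplasmic reticulum, was at 9.11 ± 5.86 and 6.33 ± 5.99 CPM. Both calls at 1.11 µM were lost against the same-row DMSO wells alone (adjusted p = 0.186 for EIF2AK1 and 0.126 for EIF2AK2). Kinase activity is not read by mRNA.

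Of 13 genes for subunits of eIF2, its exchange factor eIF2B and its phosphatase, and for the mitochondrial relay of OMA1 and DELE1, 3 were higher (5 with size factors) and 1 lower at 0.37 µM, and 1 higher and 1 lower at 1.11 µM. Over all genes 11.2% were higher and 13.6% lower at 0.37 µM. At 1.11 µM it was 9.76% and 13.2%, and the counts of the list there were close to that background. EIF2B5, the catalytic subunit of eIF2B, rose at 0.37 µM, from 14.6 ± 5.87 to 34.1 ± 3.74 CPM (log2 change 1.22 ± 0.28, edgeR adjusted p = 0.000451). PPP1CC, a catalytic subunit of protein phosphatase 1, fell by 1.01 on the log2 scale at that dose (adjusted p = 0.00143). EIF2S1, the subunit of eIF2 that is phosphorylated, was called higher at 0.37 µM (log2 change 0.93, adjusted p = 0.00126), but not against the same-row DMSO wells alone (0.150). At 1.11 µM its call (0.67, adjusted p = 0.0392) and that of PPP1CC (-0.70, 0.0417) were each lost without replicate 1 (0.353 and 0.211), among others. The median of the list was 0.32 at 0.37 µM and 0.04 at 1.11 µM, against -0.14 and -0.20 over all genes.

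Among 13 paralogs of the member genes 6 were higher and 1 lower at 0.37 µM, and 3 higher and 2 lower at 1.11 µM (median log2 change 0.67 and 0.77, against -0.14 and -0.20 over all genes). Of all genes 11.2% were higher and 13.6% lower at 0.37 µM, and 9.76% and 13.2% at 1.11 µM. Without any single well of 0.37 µM 3 to 5 paralogs were higher there, and without any of 1.11 µM 1 to 3. Against the same-row DMSO wells alone 0 were higher at either dose. CEBPD, a relative of CEBPB, went from 270 ± 41.7 to 120 ± 19.5 CPM at 0.37 µM (log2 change -1.17 ± 0.22, edgeR adjusted p = 2.17e-05). TRIB1, a relative of TRIB3, had 1.65 ± 2.04 CPM in DMSO, against 9.47 ± 7.55 CPM at 0.37 µM (adjusted p = 0.0122, and 0.153 without replicate 3). CEBPA, called at 0.37 µM, was at 0.134 ± 0.267 CPM in DMSO and 1.65 ± 2.01 CPM there (adjusted p = 0.0133, and 0.265 without replicate 3). ATF5, which is translated under the same control as ATF4, went from 43.9 ± 10.0 CPM in DMSO to 77.4 ± 16.8 at 0.12 µM, 86.9 ± 4.68 at 0.37 µM and 24.5 ± 13.2 at 1.11 µM, where it was called lower (adjusted p = 0.0169, and 0.0787 to 0.135 without replicate 1 or 4). PPP1R15B, the constitutive partner of PPP1R15A, was called at 1.11 µM (1.17, adjusted p = 0.0332), but not without replicate 1 or 2 (0.226 and 0.141), and TRIB1 there not without replicate 3 (0.548). Of 9 other ATF and CREB factors, 1 was higher (CREB3, log2 change 1.02) and 1 lower (CREB1, -1.44) at 0.37 µM, and 2 were higher (ATF1, ATF6B) and 1 lower (ATF2, -1.38) at 1.11 µM. At 0.37 µM these shares are close to the 11.2% and 13.6% of all genes called higher and lower. The calls of CREB1 (without replicate 2 of its dose, adjusted p = 0.0628), ATF1 (without replicate 3, 0.412) and ATF6B (without replicate 1 or 2, 0.128 and 0.186) each rested on single wells.

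Of 30 measured targets of ATF4 outside the members, 12 were higher and 0 lower at 0.37 µM (10 to 12 higher without any single well of that dose, 17 with size factors, and 6 against the same-row DMSO wells alone). At 1.11 µM 11 were higher and 4 lower (5 higher and 1 lower against the same-row DMSO wells). Over the 30 targets the median log2 change was 0.48 and then 0.50, against -0.14 and -0.20 over all genes. Of all genes 11.2% were higher and 13.6% lower at 0.37 µM, and 9.76% and 13.2% at 1.11 µM. Lower doses had 0.203% (0.014 µM), 0.603% (0.04 µM) and 1.31% (0.12 µM) of all genes higher. At 0.014 µM 2 targets were higher (PSAT1, SLC7A11), at 0.04 µM 3 (with SLC3A2) and at 0.12 µM 5 (with SLC7A5 and MARS1), named here after their values were seen. These counts were 0, 1 and 2 against the same-row DMSO wells alone, and the call of SLC7A11 was kept there at 0.04 and 0.12 µM. At 0.014 µM the call of PSAT1 was lost without replicate 2, 3 or 4 (adjusted p = 0.0705 to 0.216) and that of SLC7A11 without replicate 1 or 2 (0.142 and 0.0517). Those of MARS1 and SLC7A5 at 0.12 µM were lost with size factors (adjusted p = 0.0528 and 0.0539) and without replicate 1, 2 or 3 (0.0734 to 0.355). SLC7A11, the cystine carrier, which is a target of NRF2 as well, had 6.96 ± 5.55 CPM in DMSO, against 99.9 ± 35.9 CPM at 0.04 µM (log2 change 3.83 ± 0.41, edgeR adjusted p = 4.64e-11). At this dose 0 of the 10 members were called.

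SLC3A2, the chain that SLC7A11 and SLC7A5 share, was 12.2-fold above DMSO at 0.37 µM and 10.2-fold at 1.11 µM, where its wells held 302 to 503 CPM. CHAC1, which cleaves glutathione and is a known target of ATF4 and CHOP, was at 0.974 ± 1.11 CPM in DMSO, 5.97 ± 2.00 CPM at 0.37 µM and 35.2 ± 29.4 CPM at 1.11 µM (log2 change 5.14 ± 0.68, edgeR adjusted p = 1.08e-08). XPOT, the tRNA exporter, and KLHL24 were among the 4 that fell at 1.11 µM (log2 change -1.32 and -1.82).

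**Figure D5:**
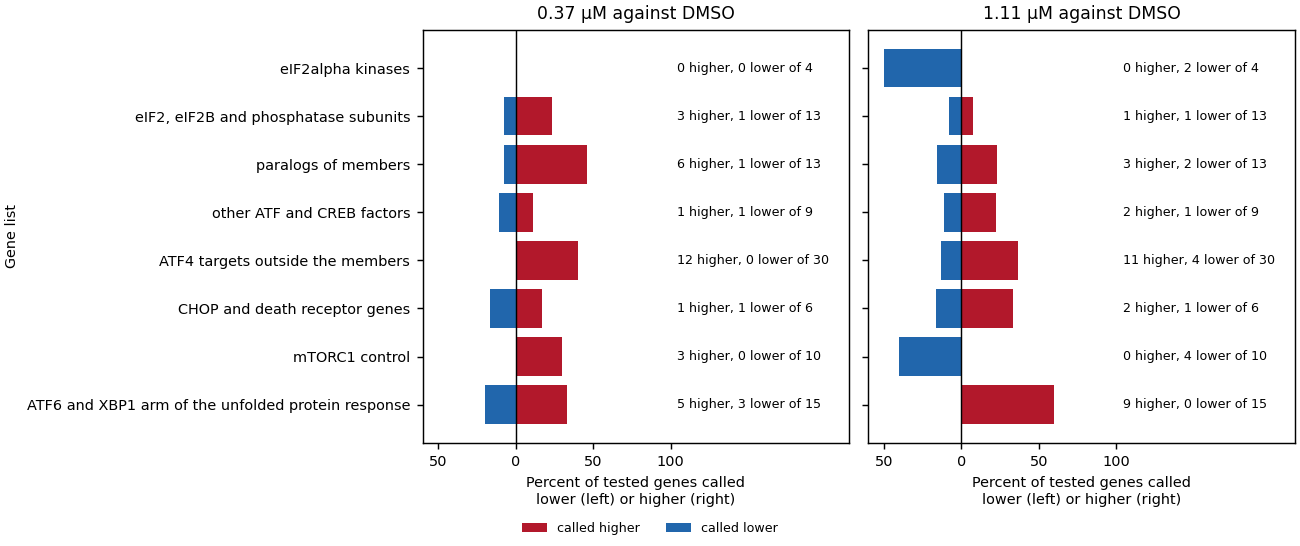
Share of tested genes of 8 related lists (y axis) called higher (red, right) or lower (blue, left) by edgeR (x axis, percent), at 0.37 µM (left panel) and 1.11 µM (right panel) against DMSO, with the counts printed beside the bars. Targets of ATF4 have 12 of 30 higher at 0.37 µM (11.2% of all genes), and the ATF6 and XBP1 arm has 9 of 15 higher at 1.11 µM (9.76% of all genes).

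Of 6 genes listed for CHOP and cell death, which include BCL2 and ERO1A, 1 was higher and 1 lower at 0.37 µM. Of all genes 11.2% were higher and 13.6% lower there. The list is not 1 of genes that should share a direction. At 1.11 µM 2 genes of the list were higher and 1 lower (9.76% and 13.2% of all genes). PMAIP1, which encodes NOXA, rose at 0.37 µM, from 4.49 ± 4.71 to 64.2 ± 22.2 CPM (log2 change 3.83 ± 0.70, edgeR adjusted p = 1.21e-05). At 1.11 µM its call (log2 change 2.81, adjusted p = 0.00488) was lost without replicate 1 (0.69, adjusted p = 0.672). BBC3, which encodes PUMA, fell from 61.6 ± 12.7 CPM to 26.2 ± 9.34 at 0.37 µM and 16.7 ± 11.9 at 1.11 µM (log2 change -1.23 and -1.88, adjusted p = 0.000591 and 6.99e-06). ERO1A, an oxidase of the endoplasmic reticulum, was called higher at 1.11 µM, but not without replicate 3 or 4 (adjusted p = 0.141 and 0.266).

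Genes of mTORC1 control, on which SESN2 and DDIT4 act, had 3 of 10 higher at 0.37 µM and 4 of 10 lower at 1.11 µM. Of all genes 11.2% were higher at 0.37 µM and 13.2% lower at 1.11 µM. RHEB, the activator of mTORC1, rose at 0.37 µM, from 244 ± 36.5 to 483 ± 69.5 CPM (log2 change 0.99 ± 0.14, edgeR adjusted p = 3.16e-08). EIF4EBP1, a repressor of translation that is a target of ATF4 and of mTORC1 signalling, was at 41.8 ± 8.04 CPM in DMSO, 80.3 ± 7.12 at 0.37 µM and 11.5 ± 2.72 at 1.11 µM (log2 change -1.87 ± 0.24 at 1.11 µM, adjusted p = 1.46e-09). PRKAB1, a subunit of the energy sensor AMPK, rose by 1.39 at 0.37 µM (adjusted p = 0.000981). CASTOR1, an arginine sensor, had 0 counts in all 4 wells at 1.11 µM and 1.30 ± 1.16 CPM in DMSO. Its call was lost without any 1 of those wells (0.0531 to 0.0561), and the list then had 1 to 3 lower.

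In the arm of the unfolded protein response run by ATF6 and XBP1, which makes chaperones of the endoplasmic reticulum, 3 of 15 genes were lower and 0 higher at 0.12 µM (CALR, HSP90B1 and HSPA5, named after their values were seen), 5 higher and 3 lower at 0.37 µM (2 to 5 higher without any single well), and 9 higher and 0 lower at 1.11 µM (6 to 8 without any single well of that dose). The median log2 change was -0.53, 0.12 and 0.56, against -0.07, -0.14 and -0.20 over all genes. Of all genes 1.31% were higher and 1.02% lower at 0.12 µM. At 0.37 µM it was 11.2% and 13.6%, and at 1.11 µM 9.76% and 13.2%. HSPA5, the main chaperone of the endoplasmic reticulum, was at 207 ± 49.4 CPM in DMSO, 58.0 ± 23.9 at 0.12 µM and 659 ± 78.3 at 1.11 µM (log2 change 1.67 ± 0.22, edgeR adjusted p = 1.14e-08). DNAJB9, a target of XBP1, was highest at 0.37 µM (89.8 ± 45.4 CPM against 16.8 ± 10.1 in DMSO, adjusted p = 2.80e-06). HYOU1 was higher there too (0.99, adjusted p = 0.0223, and 0.220 without replicate 2), while CRELD2 (-1.05, adjusted p = 0.0104) and PDIA4 (-1.01, 0.00256) were lower. The call of CRELD2 was lost with size factors (0.0552) and without replicate 1 (0.0621), and against the same-row DMSO wells alone CRELD2 (0.179), PDIA4 (0.186) and HYOU1 (0.261) were all lost. DNAJB11, a partner of HSPA5, had 26.2 ± 13.3 CPM in DMSO, against 95.7 ± 43.7 CPM at 1.11 µM (log2 change 1.87 ± 0.32, adjusted p = 4.27e-06). The 3 falls at 0.12 µM were lost against the same-row DMSO wells alone (adjusted p = 0.0690 to 0.693). Over all named genes of the 8 lists, 39 of 57 calls were lost against those 4 DMSO wells, with none turned. The parts of plate row and of the smaller number of DMSO wells in these losses were not tested. Among the lost calls were those of PPP1CC, CEBPA, TRIB1, CREB1, CREB3, PMAIP1, BBC3 and PRKAB1 at 0.37 µM and of ATF5, ATF1, ATF6B, KLHL24, PMAIP1 and ERO1A at 1.11 µM.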

How the data were processed

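The 10 members and all gene lists were chosen with earlier results of these data known. The deposited file held raw whole-number counts per gene and well. The submitters' processing notes name kallisto, bustools and GRCh38, and versions and use of strand are not given in the sources used here. All 72 wells were matched to the labels. Gene positions came from GENCODE 29, and 23077 of 23170 IDs matched. A processed pseudogene was left out of totals and tests because it held 2.96% of counts in DMSO but 4.55% at 1.11 µM, 28.8% at 3.33 µM and 57.2% at 10 µM.

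All wells were fitted together in edgeR 4.0.16 (R 4.3.3): TMM scaling, a low-count filter (filterByExpr, minimum count 10), robust quasi-likelihood tests, and Benjamini-Hochberg adjustment over 14264 genes per comparison, with a threshold of 0.05. Levels are TMM-scaled CPM, and the log2 CPM behind each Pearson's r used a prior count of 2. The code was tested on simulated data. Alternatives were DESeq2 1.42.0 size factors and its Wald test, no filter, a block on replicate number, other sets of DMSO wells or doses, a plate side term, and leaving out each treated well. The pseudogene was put back in an alternative chosen after the data were seen. Pooled counts carry exact 95% Poisson intervals for counting error only. Promoters came from RefSeq (GRCh38.p14). Beside the members and the eIF2 kinases, the genes named were the largest rises and falls among the called genes of each list at 0.37 and 1.11 µM, up to 4 a dose, and the 3 genes most like each member. One of the latter is not reported here. Others are said to be chosen after their values were seen, apart from ATF5 at 0.12 µM and MARS1, shown because it overlaps DDIT3.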

Additional observations from a re-analysis of the deposited data

Results flagged for a closer look

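In 6 of 97 groups of 4 wells with any spread, the highest well of a member stood further from the others than Dixon's 95% limit allows, and chance alone flags about 1 in 20 such groups. SESN2 at 1.11 µM had its highest well at 374 CPM, with the other 3 between 176 and 208 CPM. The remaining flags come from the doses with few counts. At 3.33 µM the highest wells were ATF4 at 230 CPM (41 counts), ATF3 at 19.2 CPM (4 counts, the other 3 wells at 0) and GDF15 at 14.4 CPM (3 counts, the other 3 at 0). At 10 µM they were TRIB3 at 81.5 CPM (5 counts) and DDIT4 at 135 CPM (10 counts), where the other wells of both genes held 0 counts.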

How the results depend on the processing

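Of 46 calls of members, all were kept with a plate side term and with the pseudogene included, 45 with DESeq2 size factors, 45 with its Wald test, 43 with no filter, and 19 of 24 against the 4 same-row DMSO wells; none turned. Genes called over all genes, from 1, 8, 11, 31, 113, 332, 3533, 3277, 5734 and 5017 at the 10 doses in ascending order, came to 185, 153, 205, 163 and 289 at the 5 lowest with no filter, and to 3 at 0.0005 µM with plate side. The Wald test gave 12 at 0.0005 µM, 28 at 0.005, 64 at 0.014, 252 at 0.04, 712 at 0.12 and 3154 at 10 µM, 17 for 0.04 to 0.12 µM (2 in the main test) and 2255 for 0.12 to 0.37 µM (1159), with 1, 3 and 1 members higher at 0.12, 3.33 and 10 µM. Size factors gave 2958 genes and 1 member higher at 10 µM. The same-row DMSO wells gave 0, 0, 0, 4, 18, 48, 1231 and 982 genes up to 1.11 µM. Each dose with DMSO alone gave 6, 21, 37, 89, 322 and 910 up to 0.12 µM, with 1 member higher at 0.12 and 2 at 3.33 µM. Without the 3.33 and 10 µM wells there were 13, 17, 56, 242 and 707 genes at 0.002 to 0.12 µM, 10 and 1893 for the first 2 steps, and 1 member higher at 0.12 µM.

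Replicate numbers showed no pairing of the wells: deviations of same-numbered wells had a median r of -0.01 (112 pairs, 21 over 0.1) and those of others 0.00 (336 pairs). Treated wells with the same number shared a plate row, but each number changed plate side between 0.005 and 0.014 µM. Pairing by plate side was therefore not tested in this way. DMSO wells were numbered up to 32 and the wells of a dose up to 4. In the replicate block each DMSO well numbered above 4 had a block of its own, so only 4 DMSO wells served as the reference. These 4 wells lay in plate rows A and B, not in the rows K and L of the treated wells. The parts of this smaller reference and of its place on the plate in the calls lost were not tested. With the replicate block the counts were 0, 0, 0, 4, 16, 48, 1206, 756 and 3514 genes up to 3.33 µM, and 1, 474 and 2330 for the first 3 steps, and 36 of 46 member calls were kept. Those lost were DDIT4 at 0.12 µM (adjusted p = 0.0566), TRIB3 at 1.11 (0.212) and 3.33 µM (0.0653), ATF4 at 3.33 (0.588) and 10 µM (0.110), ATF3 (0.0627) and TRIB3 (0.108) from 0.12 to 0.37 µM, ATF4 (0.0893) and CEBPB (0.116) from 0.37 to 1.11 µM, and ATF4 from 1.11 to 3.33 µM (0.211). Of 57 named list calls 41 were lost. The targets of ATF4 called higher at 0.014, 0.04 and 0.12 µM were then 0, 1 and 1.

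Signs turned only where no call was made, and the cause was not tested. The log2 changes were, with the replicate block, ATF4 0.095 and GDF15 0.022 at 0.04 µM and ATF3 0.52 at 0.12 µM; with size factors and the Wald test, DDIT4 0.74 and 0.75 and NUPR1 0.50 and 0.48 at 10 µM, and EIF2AK3 0.20 and 0.20 and EIF2AK4 0.16 and 0.16 at 0.37 µM; with same-row DMSO, TRIB3 -0.029 and NUPR1 0.00065 at 0.04 µM, DDIT4 0.33 at 10 µM, and EIF2AK4 0.11 at 0.37 and 0.033 at 1.11 µM; with the dose and DMSO alone, DDIT4 0.022 at 10 µM; and with plate side, EIF2AK3 0.037 at 0.37 µM. Leaving out each well gave 2 to 8 genes at 0.0005 µM, 203 to 292 at 0.12 µM, 1 to 3 and 761 to 933 for the first 2 steps, and 1 to 2 members higher at 3.33 µM. It also gave, at 0.04 µM, TRIB3 -0.28 to 0.37, ATF3 -0.24 to 0.26, SESN2 -0.021 to 0.49, NUPR1 -0.088 to 0.024 and GDF15 -0.81 to 0.066; NUPR1 at 1.11 µM -0.043 to 0.18; at 3.33 µM DDIT3 -0.24 to 0.86, PPP1R15A -0.15 to 0.78 and ATF3 -7.61 to 0.72; at 10 µM TRIB3 -8.29 to 1.98, DDIT4 -10.86 to 0.29 and DDIT3 -1.47 to 1.05; GDF15 from 0.04 to 0.12 µM -0.60 to 0.35; EIF2AK3 at 0.37 µM -0.10 to 0.039; and EIF2AK4 at 1.11 µM -0.26 to 0.021. Values near -8 or below are fits to groups left at 0 counts and are no measured folds. The Wald test gave no adjusted p for 2 members, ATF3 and TRIB3, at 10 µM. Depth limits every value at 3.33 and 10 µM.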
